A study of Mus musculus with 6 samples.

Results

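The genes described here encode the standard proteasome, the protease complex that degrades ubiquitin-tagged proteins, and its activators. Members were the entries of the deposited gene table whose symbol is *Psma*, *Psmb*, *Psmc*, *Psmd* or *Psme* followed by a number, without *Psmb8*, *Psmb9* and *Psmb10*, the subunits of the immunoproteasome. The rule used symbols and no measured value, and it found 40 members among 21358 entries. They comprised 8 subunits of the alpha ring, 8 of the beta ring, 9 of the base, 8 of the lid, 3 chaperones of the base and 4 activators. RNA was sequenced from whole B16-F10 tumors, a murine melanoma line, grown under the skin of young female C57BL/6 mice and taken on day 12 after treatment. All mice had been irradiated and had received ACT, the transfer of peptide-activated T cells from pmel-1 donors, which carry a transgenic receptor for the melanoma antigen gp100. In the ACT + IL-2 group the mice were then injected with IL-2 on consecutive days of each cycle, and in the ACT + NKTR-214 group with NKTR-214, a pegylated IL-2, once per cycle. Each group had 3 tumor libraries. They were described as biological replicates, with no statement of how the tumors map to mice, and p-values measure the spread between these samples. No group without a cytokine is analysed here. The whole tumor mixes melanoma, immune and stromal cells, so fewer cells of a type and less RNA per cell cannot be told apart.

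The core of the proteasome is a barrel of stacked rings. The outer rings are built of alpha subunits and act as a gate, and the inner rings are built of beta subunits, of which *Psmb5*, *Psmb6* and *Psmb7* encode the constitutive catalytic sites. A regulatory particle caps the barrel. Its base holds a ring of ATPases (*Psmc1* to *Psmc6*) that unfolds substrates, and its lid removes ubiquitin. The PA28 ring of *Psme1* and *Psme2* products is another cap, which opens the gate without ATP and is known to be induced by interferon-γ together with the immunoproteasome subunits that take the place of the constitutive catalytic ones.

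Values were FPKM, fragments scaled to the exon length of the gene and to the size of the library, which allow levels of different genes to be set side by side. Low FPKM values fall on steps of whole reads, and from these steps the library sizes that the FPKM were divided by were 84.7 to 100% of the largest. The methods name mapped fragments for this total, without saying whether those mapped to the genome or to genes were counted. ACT + IL-2 replicate 2 stood apart in another way. The sum of its FPKM weighted by gene length, which measures reads in listed genes relative to that library size, was 78.2% of that of ACT + NKTR-214 replicate 1, against 90.6 to 99.6% in the other libraries. Genes were therefore fitted both with FPKM as deposited and after scaling to a common 75th percentile of the genes above 0, which multiplied ACT + IL-2 replicate 2 by 1.203 and the others by 0.936 to 1.04.

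Proteasome genes as a whole differed little between the groups in FPKM as deposited, with the PA28 gene *Psme1* higher and the base genes *Psmd1* and *Psmc5* lower in ACT + NKTR-214. The test was limma on log2(FPKM + 1), run over the 14172 genes whose mean FPKM reached 0.1, at a Benjamini-Hochberg adjusted p under 0.05. Of the 40 members, 39 passed this minimum. *Psme1* was the 1 member called higher (2.56% of members, where 20.7% of all genes tested were called higher), and 2 members were called lower (5.13%, where 8.28% of all genes were). The median log2 fold change of the members, ACT + NKTR-214 minus ACT + IL-2, was -0.17, against 0.05 for all genes tested. The fold changes were small, between -0.49 and 0.53, and a fold change on this scale understates that of low genes, for *Psma8* by several fold (0.13, against 0.60 with a pseudocount of 0.1).

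The scaling of the libraries decided how many members were called, but in no member did it turn the direction of a call. With 75th percentile scaling, 25 members were lower in ACT + NKTR-214 (64.1%, where 24.7% of all genes were lower) and 2, *Psme1* and *Psme2*, were higher (5.13%, where 23.8% of all genes were higher). Under quantile normalization, which lowered the median of all genes from 0.05 to -0.10, 27 members were lower (69.2%, where 31.9% of all genes were lower) and the same *Psme1* and *Psme2* were higher (19.0% of all genes). All 25 members lower with 75th percentile scaling were lower with quantile normalization. With FPKM as deposited but without ACT + IL-2 replicate 2, 12 members were lower (30.8%) and 1 was higher, where 14.1% of all genes were called in each direction. Without any 1 of the other 5 tumors, 0 or 1 member was called lower and 0 to 2 were called higher, where 635 to 1009 of the 14172 genes were lower and 2428 to 3480 higher. ACT + IL-2 replicate 1 held the highest FPKM of 30 of the 39 members tested, while ACT + IL-2 replicate 2 held the lowest of 12 and ACT + NKTR-214 replicate 3 the lowest of 20. The summed FPKM of all members was 2304, 1763 and 2071 for ACT + IL-2 replicates 1 to 3 and 2010, 1866 and 1766 for ACT + NKTR-214 replicates 1 to 3, and these groups overlapped.

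**Figure D1:**
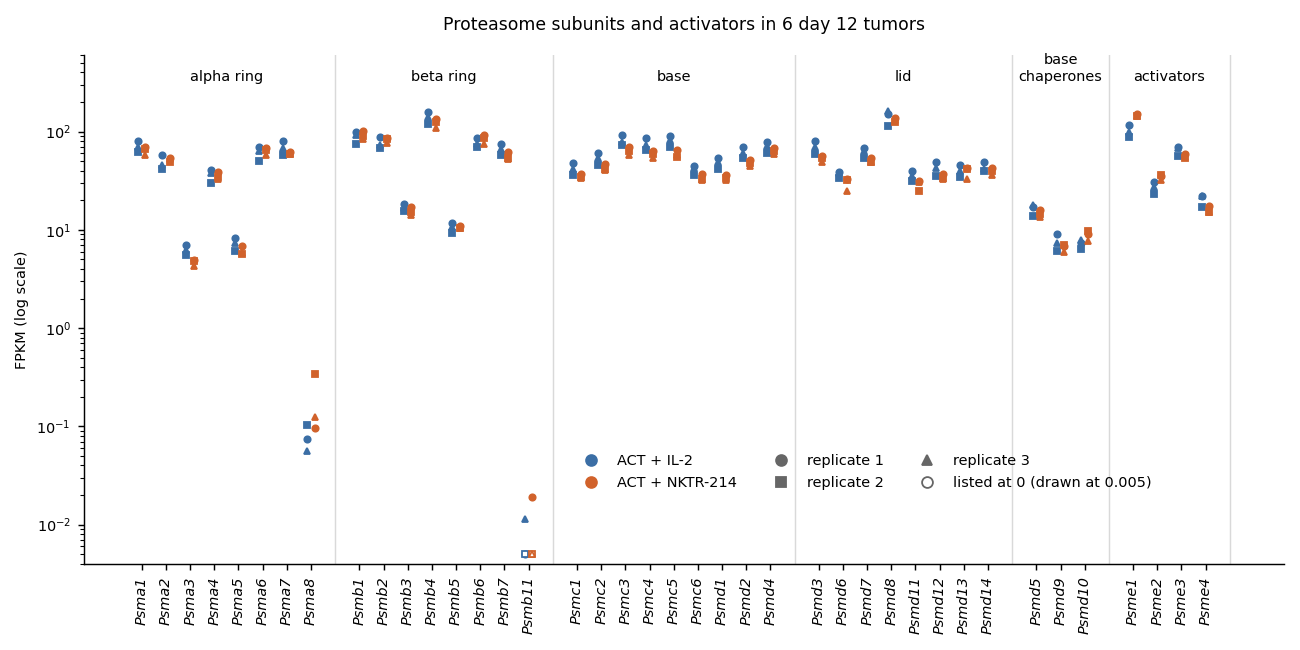
FPKM of the 40 members (log axis) in the 3 ACT + IL-2 tumors (blue) and the 3 ACT + NKTR-214 tumors (orange), with the replicate as the marker shape and values listed at 0 drawn at the bottom. Most subunits lie between 25.1 and 163 FPKM in every tumor, *Psma8* and *Psmb11* lie near 0, and *Psme1* is the highest activator, with its groups apart.

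**Figure D2:**
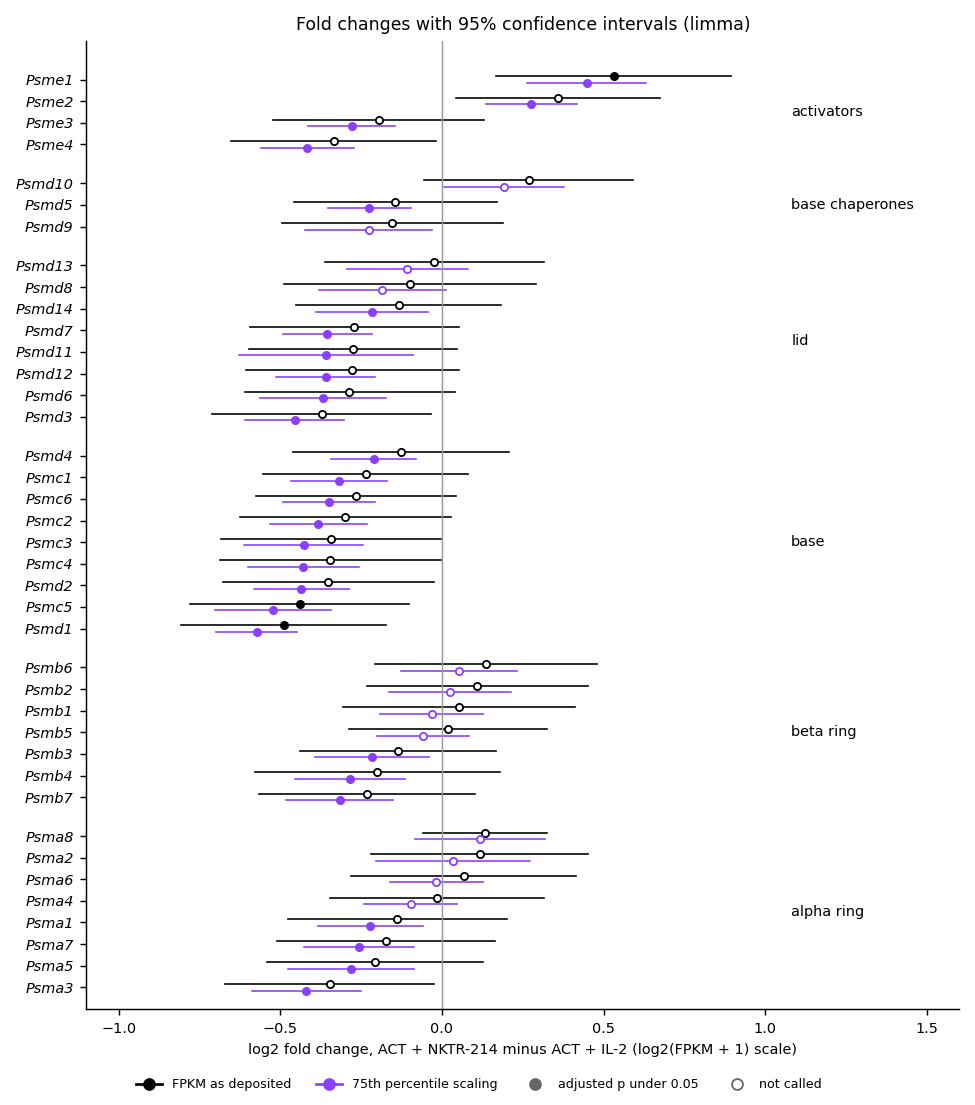
Log2 fold change of the 39 members tested, ACT + NKTR-214 minus ACT + IL-2, with 95% confidence intervals from limma, for FPKM as deposited (black) and with 75th percentile scaling (purple). Filled points passed an adjusted p of 0.05. All 17 base and lid members lie left of 0 with either scaling, from -0.49 to -0.02 as deposited, and *Psme1* and *Psme2* lie right of it.

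Ratios between members within a tumor do not depend on a factor that multiplies the whole library, and they separated the subcomplexes. The summed FPKM of the 9 base genes relative to the summed FPKM of the 16 core genes was 0.708, 0.719 and 0.717 in ACT + IL-2 replicates 1 to 3 and 0.587, 0.576 and 0.597 in ACT + NKTR-214 replicates 1 to 3. The groups were far apart in this ratio, at 0.715 ± 0.0056 and 0.587 ± 0.0108 (SD, n = 3 each), so the base stood at 82.1% of its ACT + IL-2 level relative to the core. The lid stood at 0.593, 0.597 and 0.639 of the core in ACT + IL-2 and at 0.537, 0.536 and 0.565 in ACT + NKTR-214, also without overlap. The PA28 genes *Psme1* and *Psme2* went the other way. Together they reached 0.169, 0.167 and 0.164 of the core in ACT + IL-2 and 0.232, 0.243 and 0.256 in ACT + NKTR-214, which is 146.1% of the ACT + IL-2 mean. The base chaperones did not separate the groups, with means of 0.0400 ± 0.0023 and 0.0401 ± 0.0013 (SD, n = 3 each). ACT + IL-2 replicate 2, whose weighted FPKM sum was low, lay with the other ACT + IL-2 tumors in all of these ratios. The ratios are described without a test because they are scores over members that were chosen with earlier results known.

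**Figure D3:**
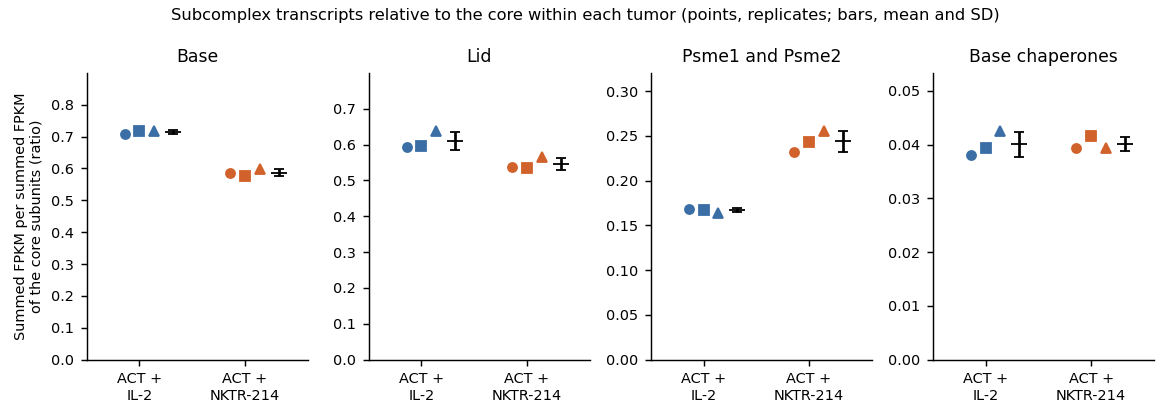
Summed FPKM of the base, the lid, *Psme1* with *Psme2*, and the base chaperones, each divided by the summed FPKM of the core genes of the same tumor (points, 3 tumors per group, shapes as replicates; bars, mean and SD; axes start at 0). The ACT + NKTR-214 tumors lie below all ACT + IL-2 tumors for the base and the lid, above them for *Psme1* with *Psme2*, and among them for the base chaperones.

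*Psme1* encodes the alpha chain of PA28, and its FPKM was 118, 89.0 and 99.9 for ACT + IL-2 replicates 1 to 3 and 152, 146 and 144 for ACT + NKTR-214 replicates 1 to 3. Every ACT + NKTR-214 tumor was above every ACT + IL-2 tumor, as in 27.1% of all genes tested. The mean of *Psme1* rose from 102 ± 14.7 to 147 ± 4.28 FPKM (SD over 3 tumors each). Its log2 fold change was 0.53 ± 0.17 (SE, limma adjusted p = 0.0288). It was called with either other scaling, with log2 fold changes of 0.45 (limma adjusted p = 0.00452) and 0.32 (limma adjusted p = 0.0171). As deposited, the call was lost without ACT + IL-2 replicate 3 (limma adjusted p = 0.116), ACT + NKTR-214 replicate 1 (0.116), replicate 2 (0.0832) or replicate 3 (0.0644), while the fold change stayed between 0.44 and 0.64. With 75th percentile scaling it was called in all 6 fits that left out 1 tumor.

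*Psme2*, the beta chain, lies beside *Psme1* on chromosome 14 (55587441 to 55591113, against 55578123 to 55581529 on GRCm38). Its FPKM was 30.7, 23.1 and 27.1 in ACT + IL-2 and 35.1, 36.4 and 32.5 in ACT + NKTR-214, again without overlap. The log2 fold change of 0.36 ± 0.15 (SE) missed the threshold as deposited (limma adjusted p = 0.0828). Of the 6 fits as deposited that left out 1 tumor, the 1 without ACT + IL-2 replicate 1 passed (limma adjusted p = 0.0444). The others did not (limma adjusted p from 0.0931 to 0.284). With 75th percentile scaling *Psme2* passed, at 0.28 (limma adjusted p = 0.00938), and did so in all 6 fits that left out 1 tumor. Of its 50-base windows, 54.9% also occur in genes elsewhere, chiefly *Psme2b*. *Psme2b* itself averaged 1.52 ± 0.313 and 2.47 ± 0.071 FPKM (SD, n = 3 each), with a log2 fold change of 0.47 (limma adjusted p = 0.0184) that was not called under quantile normalization (0.17, limma adjusted p = 0.106). Reads that the 2 genes share may have been dropped or split, so the level of *Psme2* is uncertain.

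The other activators did not follow PA28. *Psme3*, whose product forms a nuclear ring of the same family, had 70.3, 56.1 and 67.9 FPKM in ACT + IL-2 and 59.6, 54.4 and 54.7 in ACT + NKTR-214, with overlap. The log2 fold change of *Psme3* was -0.20 as deposited (SE 0.15, limma adjusted p = 0.374) and -0.28 with 75th percentile scaling (limma adjusted p = 0.00756). *Psme4*, which encodes the large single-chain activator PA200, had 21.9, 17.0 and 22.1 FPKM in ACT + IL-2 and 17.3, 15.1 and 15.1 in ACT + NKTR-214. The groups were apart but for ACT + IL-2 replicate 2. Its log2 fold change was -0.34 as deposited (SE 0.15, limma adjusted p = 0.107) and -0.42 with 75th percentile scaling (limma adjusted p = 0.00264). Within a tumor the ratio of *Psme1* to *Psme3* was 1.68, 1.59 and 1.47 in ACT + IL-2 and 2.56, 2.68 and 2.63 in ACT + NKTR-214, and that of *Psme1* to *Psme4* was 5.39, 5.25 and 4.52 against 8.80, 9.69 and 9.54. Neither ratio overlapped between the groups.

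Sequence near the transcription starts is shown because *Psme1* and *Psme2* differed in the opposite direction from most members. The letters of an element of promoters that is known from proteasome genes were found in 6 members. Of these, *Psmb5*, *Psmb6* and *Psme4* are printed, and *Psmc6*, *Psmd9* and *Psmd12* are not. *Psmb8*, the immunoproteasome counterpart of *Psmb5*, is shown beside it. RefSeq windows of 250 bases before to 50 after the start (GRCm38.p6) were found for 33 members, *Psmb7* not among them, and the 3 immunoproteasome genes. The letters searched, on both strands, were the interferon response element core (GAAA, any pair of bases, GAAA), the gamma-activated site TTCNNNGAA, the antioxidant response element core TGACNNNGC and CCAAT. The 30 bases around the match are given 5′ to 3′ on the strand of the gene, with the matching letters in capitals. The match in *Psme1* begins 9 bases after the start, at chr14:55578493-55578522 (plus strand). That of *Psmb8* ends 89 bases before the start, at chr17:34198088-34198117 (plus strand). Those of *Psmb5* (chr14:54618023-54618052, minus strand) and *Psmb6* (chr11:70525338-70525367, plus strand) end 39 bases and 1 base before it, and that of *Psme4* (chr11:30771758-30771787, plus strand) reaches over it.
*Psme1*, interferon response element core: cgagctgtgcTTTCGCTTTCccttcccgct
*Psmb8*, gamma-activated site: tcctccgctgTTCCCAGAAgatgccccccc
*Psmb5*, antioxidant response element core: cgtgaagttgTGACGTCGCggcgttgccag
*Psmb6*, antioxidant response element core: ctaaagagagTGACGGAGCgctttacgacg
*Psme4*, antioxidant response element core: cgctgcggctGCAGCGTCAccagaagagcc

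The interferon response element core was found in 4 of the 33 members (12.1%), *Psme1*, *Psmb3*, *Psmd4* and *Psmd9*, against 3.4% of all 32851 windows. For each motif a member counted if any of its windows held the letters, while the share of all windows counts single windows, so these shares differ in unit. Of these 4, *Psme1* alone was called as deposited, and *Psmb3* and *Psmd4* were lower with 75th percentile scaling. None of the printed matches overlaps another motif searched. The window of *Psme2* does not hold these letters. The antioxidant response element core was found in 6 members (*Psmb5*, *Psmb6*, *Psme4*, *Psmc6*, *Psmd9* and *Psmd12*, 18.2%, against 12.4% of all windows), the gamma-activated site in 1 (*Psmd2*, 3.0%, against 8.3%) and CCAAT in 13 (39.4%, against 37.4%). Among the 3 immunoproteasome genes the gamma-activated site was found in 1, *Psmb8*, and the interferon response element core in 0. A match of letters is a description of the sequence and not a binding site.

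In the base of the regulatory particle, *Psmd1* and *Psmc5* were lower in ACT + NKTR-214 as deposited. All 9 base genes had negative log2 fold changes with every scaling, with a median of -0.34 as deposited and -0.43 with 75th percentile scaling. As deposited 2 of the 9 passed the threshold (8.28% of all genes were lower), and after 75th percentile scaling (24.7%) or quantile normalization (31.9%) all 9 did. In 5 of them, *Psmc3*, *Psmc4*, *Psmc5*, *Psmd1* and *Psmd2*, every ACT + NKTR-214 tumor was below every ACT + IL-2 tumor as deposited, as in 15.3% of all genes tested, and with 75th percentile scaling this held for all 9. Over all 39 members tested, the groups were apart as deposited in 9 lower (15.3% of all genes) and 2 higher members (27.1% of all genes), and with 75th percentile scaling in 26 lower (32.8% of all genes) and 3 higher members (29.0% of all genes).

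*Psmd1* (chromosome 1, 86064387 to 86139151) encodes a large scaffold subunit of the base, to which the ubiquitin receptor encoded by *Adrm1* binds, and had 53.9, 42.0 and 49.6 FPKM over ACT + IL-2 replicates 1 to 3 and 36.2, 34.0 and 32.1 over ACT + NKTR-214 replicates 1 to 3. Its mean fell from 48.5 ± 6.0 to 34.1 ± 2.03 FPKM (SD over 3 tumors each), with a log2 fold change of -0.49 ± 0.15 (SE, limma adjusted p = 0.021), the largest in size among the lower members. With 75th percentile scaling the fold change was -0.57 (limma adjusted p = 0.000749). The call as deposited held without ACT + IL-2 replicate 2 (limma adjusted p = 0.0109) or ACT + NKTR-214 replicate 1 (0.0468) and was lost without ACT + IL-2 replicate 1 (0.0762), replicate 3 (0.0879), ACT + NKTR-214 replicate 2 (0.0699) or replicate 3 (0.0775). Other annotated genes overlap 11.7% of its 50-base windows.

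*Psmc5* (chromosome 11, 106256154 to 106263120), an ATPase of the base ring, had 91.2, 69.8 and 81.4 FPKM in ACT + IL-2 and 64.4, 55.2 and 57.6 in ACT + NKTR-214, with the groups apart. Its log2 fold change was -0.44 (SE 0.16), and the limma adjusted p of 0.0494 lay just under the threshold. That call was lost with a pseudocount of 0.1 or a minimum mean FPKM of 1. The limma adjusted p was 0.0185 without ACT + IL-2 replicate 2, and the call was lost without ACT + IL-2 replicate 1 (0.168), replicate 3 (0.154), ACT + NKTR-214 replicate 1 (0.0842), replicate 2 (0.209) or replicate 3 (0.131). With 75th percentile scaling the fold change was -0.52 (limma adjusted p = 0.00248), and in that scaling both *Psmc5* and *Psmd1* were called with any 1 tumor left out. Of the other ATPases, *Psmc4*, *Psmc3* and *Psmc2* had log2 fold changes of -0.34, -0.34 and -0.30, and *Psmc6* and *Psmc1* of -0.27 and -0.24, none of which passed as deposited. With 75th percentile scaling these 5 had log2 fold changes from -0.43 to -0.32 (limma adjusted p from 0.0038 to 0.00686). *Psmd2*, the other large scaffold, had a log2 fold change of -0.35 as deposited (limma adjusted p = 0.0995) and -0.44 after this scaling (limma adjusted p = 0.00239).

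*Psmd4* (chromosome 3, 95032694 to 95042614) encodes a ubiquitin receptor between base and lid, and it differed least of the base genes. Its FPKM was 77.9, 60.1 and 71.3 in ACT + IL-2 and 67.5, 63.4 and 59.5 in ACT + NKTR-214, with overlap. The log2 fold change was -0.13 (SE 0.16, limma adjusted p = 0.59) and -0.21 with 75th percentile scaling (limma adjusted p = 0.0192), where it was called in 4 of the 6 fits that left out 1 tumor.

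None of the 8 lid genes passed the limma threshold as deposited (1 had an unadjusted p under 0.05), and all had negative log2 fold changes, from -0.37 for *Psmd3* to -0.02 for *Psmd13*, with a median of -0.27. After 75th percentile scaling 6 of the 8 were lower (24.7% of all genes), and *Psmd8* and *Psmd13* were not called. *Psmd3*, a lid scaffold, had 80.1, 59.1 and 69.6 FPKM in ACT + IL-2 and 56.8, 53.5 and 49.4 in ACT + NKTR-214 without overlap, a log2 fold change of -0.37 as deposited (limma adjusted p = 0.0932) and -0.46 with 75th percentile scaling (limma adjusted p = 0.00229). *Psmd6* and *Psmd11* were likewise without overlap as deposited, and the scaled call of *Psmd11* held in 1 of the 6 fits that left out 1 tumor. *Psmd14* (chromosome 2, 61711694 to 61800376), the metalloprotease that cuts ubiquitin chains off the substrate, had 49.4, 39.3 and 42.0 FPKM in ACT + IL-2 and 42.3, 40.1 and 36.2 in ACT + NKTR-214, with overlap. Its log2 fold change was -0.13 (SE 0.15, limma adjusted p = 0.55) and -0.22 with 75th percentile scaling (limma adjusted p = 0.046), where it was called in 1 of the 6 fits that left out 1 tumor. *Psmd8* was among the highest members, at 152, 114 and 163 FPKM in ACT + IL-2 and 137, 127 and 133 in ACT + NKTR-214.

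The core had a median log2 fold change near 0. None of its 15 tested genes passed the limma threshold as deposited (1 had an unadjusted p under 0.05), with 7 positive and 8 negative log2 fold changes and a median of -0.01. In the values scaled to the 75th percentile 7 of the 15 were lower (24.7% of all genes), 4 of the alpha ring (*Psma1*, *Psma3*, *Psma5* and *Psma7*) and 3 of the beta ring (*Psmb3*, *Psmb4* and *Psmb7*), 4 fold changes were positive and 11 negative, and the median was -0.10, against -0.36 for base and lid together. With 1 tumor left out in turn, the calls in these scaled values held in all 6 fits for *Psma3* and *Psmb7*, in 4 for *Psmb4*, in 2 for *Psma7* and in 1 each for *Psma1*, *Psma5* and *Psmb3*. *Psma3* was the 1 core gene whose groups were apart as deposited, with 6.95, 5.51 and 6.25 FPKM in ACT + IL-2 and 4.99, 4.78 and 4.26 in ACT + NKTR-214. The alpha genes *Psma2*, *Psma4* and *Psma6* and the beta genes *Psmb1*, *Psmb2*, *Psmb5* and *Psmb6* were called in neither of these fits.

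None of the 3 constitutive catalytic subunits was called as deposited, and after either rescaling *Psmb7* was lower while *Psmb5* and *Psmb6* were not called. *Psmb5* (chromosome 14, 54614119 to 54618022), the chymotrypsin-like site, had 11.6, 9.22 and 10.8 FPKM in ACT + IL-2 and 11.0, 10.5 and 10.4 in ACT + NKTR-214. The 3 ACT + NKTR-214 tumors lay inside the range of the ACT + IL-2 tumors, and the log2 fold change was 0.02 ± 0.14 (SE, limma adjusted p = 0.941) as deposited and -0.06 with 75th percentile scaling (limma adjusted p = 0.447). *Psmb6* (chromosome 11, 70525367 to 70527858), the caspase-like site, had 86.2, 69.6 and 75.6 FPKM in ACT + IL-2 and 92.4, 87.0 and 75.1 in ACT + NKTR-214, a log2 fold change of 0.14 (SE 0.16, limma adjusted p = 0.574) as deposited and 0.05 with 75th percentile scaling (limma adjusted p = 0.593). *Psmb7* (chromosome 2, 38588036 to 38644087), the trypsin-like site, had 75.3, 57.4 and 66.1 FPKM in ACT + IL-2 and 61.5, 54.3 and 52.4 in ACT + NKTR-214. Its groups overlapped, and its log2 fold change was -0.23 as deposited (SE 0.16, limma adjusted p = 0.3) and -0.32 with 75th percentile scaling (limma adjusted p = 0.0103). Other annotated genes overlap 28.1% of the *Psmb7* windows.

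Each constitutive catalytic subunit has an immunoproteasome counterpart, *Psmb8* for *Psmb5*, *Psmb9* for *Psmb6* and *Psmb10* for *Psmb7*. *Psmb8* had 144, 111 and 113 FPKM in ACT + IL-2 and 198, 200 and 176 in ACT + NKTR-214, a log2 fold change of 0.64 (SE 0.18, limma adjusted p = 0.0136) as deposited and 0.56 with 75th percentile scaling (limma adjusted p = 0.00467). The call as deposited was lost without ACT + IL-2 replicate 3 (limma adjusted p = 0.0844), ACT + NKTR-214 replicate 1 (0.061) or replicate 2 (0.0511). *Psmb9* had 143, 104 and 119 FPKM in ACT + IL-2 and 143, 144 and 131 in ACT + NKTR-214, and *Psmb10* had 105, 82.1 and 87.5 against 104, 99.6 and 102. Both overlapped between the groups, with log2 fold changes of 0.20 and 0.15, and neither was called with any scaling. The log2 ratio of *Psmb8* to *Psmb5* within a tumor was 3.52, 3.45 and 3.28 in ACT + IL-2 and 4.05, 4.12 and 3.96 in ACT + NKTR-214, without overlap. The difference was 0.62 (p = 0.1 by a two-sided exact permutation test, which cannot go lower with 3 tumors against 3, and 0.15 adjusted over the 3 ratios). The log2 ratio of *Psmb10* to *Psmb7* was also without overlap, at 0.479, 0.508 and 0.401 against 0.742, 0.863 and 0.944, a difference of 0.39 (exact permutation p = 0.1, adjusted 0.15). For *Psmb9* to *Psmb6* the groups overlapped, with means of 0.648 ± 0.077 and 0.717 ± 0.087 (SD, n = 3 each) and an exact permutation p of 0.5, and the difference of 0.07 turned to -0.02 under quantile normalization. Of the 50-base windows of *Psmb5*, 47.4% occur in other genes, so the level of its ratio is uncertain.

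**Figure D4:**
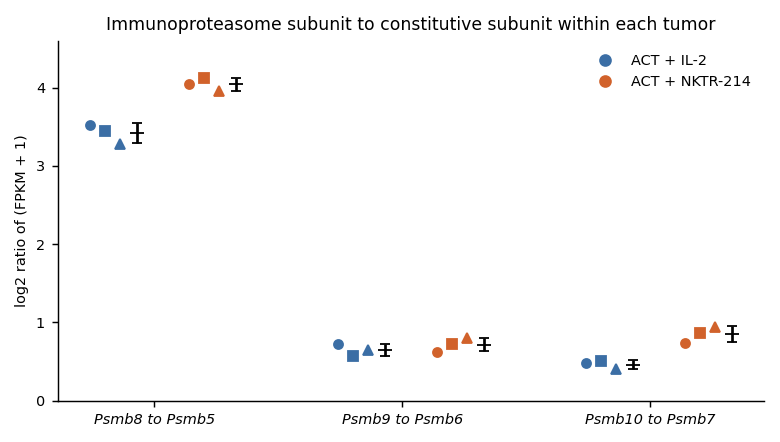
Log2 ratio of (FPKM + 1) of each immunoproteasome subunit to the constitutive subunit it replaces, within each tumor (points, 3 per group, shapes as replicates; bars, mean and SD). The groups are apart for *Psmb8* to *Psmb5* and for *Psmb10* to *Psmb7*, by 0.62 and 0.39, and overlap for *Psmb9* to *Psmb6*.

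The 3 chaperones that help the base assemble and leave the finished particle were not called by limma as deposited (0 had an unadjusted p under 0.05). *Psmd10*, which encodes gankyrin, had 7.31, 6.45 and 7.84 FPKM in ACT + IL-2 and 9.18, 9.83 and 7.66 in ACT + NKTR-214. The *Psmd10* log2 fold change of 0.27 (SE 0.15, limma adjusted p = 0.211) was positive with every scaling and passed with none. *Psmd5* and *Psmd9* had log2 fold changes of -0.15 and -0.15, and *Psmd5* was lower with 75th percentile scaling (-0.22, limma adjusted p = 0.0143, called in 4 of the 6 fits that left out 1 tumor).

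The tissue-restricted members were nearly silent. *Psma8*, an alpha subunit known from testis, had 0.0742, 0.103 and 0.0564 FPKM in ACT + IL-2 and 0.0956, 0.339 and 0.124 in ACT + NKTR-214. The steps of the FPKM values put these at 3, 4, 2, 4, 14 and 5 reads in the same order, as the smallest whole numbers with these ratios. ACT + NKTR-214 replicate 2 was thus the highest, and the log2 fold change of 0.13 was not called (limma adjusted p = 0.304). *Psmb11*, the beta subunit of the thymic cortex, was listed at 0 in 4 tumors and had 0.0113 FPKM in ACT + IL-2 replicate 3 and 0.0191 FPKM in ACT + NKTR-214 replicate 1, or 1 and 2 reads as the smallest whole numbers. It was the member left out of the tests.

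Subunits that are present in equal numbers in the particle differed widely in FPKM, and the members with low values often shared sequence with other genes. Among the alpha genes other than *Psma8*, the mean over the 6 tumors ran from 5.46 FPKM (*Psma3*) and 6.67 FPKM (*Psma5*) to 67.6 FPKM (*Psma1*). Among the beta genes other than *Psmb11*, *Psmb5* (10.6 FPKM) and *Psmb3* (16.2 FPKM) were far below *Psmb4* (131 FPKM). The share of 50-base transcript windows, the length of the reads, that also occur in an annotated gene elsewhere was 55.8% for *Psmb3*, 49.1% for *Psma5*, 47.4% for *Psmb5* and 20.8% for *Psma3*. For each of these 4 the gene that shares most windows is annotated as a pseudogene. The same share was 0% for *Psma1* and *Psmb4*, and 21.7% for *Psmd2*, the highest of the regulatory particle. *Psmd2* averaged 54.5 FPKM, and *Psma4*, with a share of 18.6%, averaged 35.7 FPKM, so such shares also occurred without a low level. The low chaperones *Psmd9* and *Psmd10* had shares of 0.25% and 0%, though other annotated genes overlap 26.7% of the *Psmd9* windows. *Psme4*, with a mean of 18.1 FPKM, had a share of 0%. A low level thus does not always go with shared sequence. Whether shared sequence lowered these values was not tested.

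**Figure D5:**
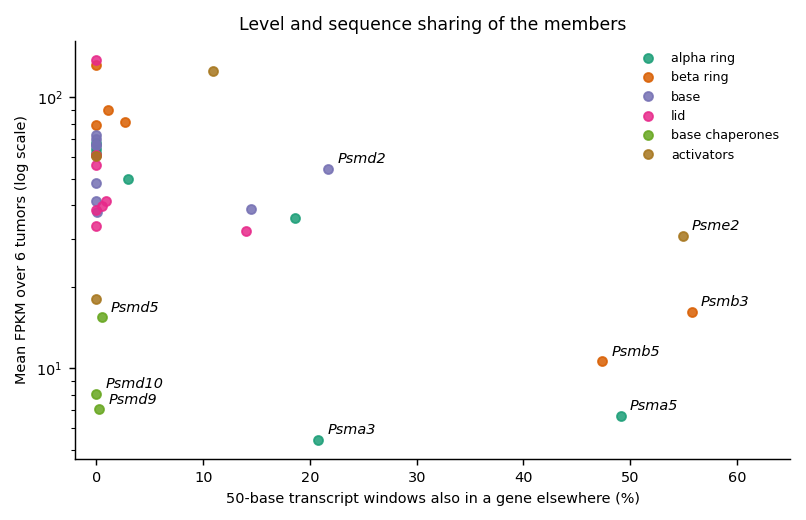
Mean FPKM over the 6 tumors (log axis) against the share of each member's 50-base transcript windows that occur in an annotated gene elsewhere, for the 38 members other than *Psma8* and *Psmb11*, coloured by subcomplex. *Psmb3*, *Psma5*, *Psmb5* and *Psme2* combine shares of 47.4 to 55.8% with means of 6.67 to 30.8 FPKM, while most members without shared windows lie higher.

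Genes that work with the proteasome were taken from 7 lists of 41 genes, of which 40 were in the table and tested. As deposited 3 passed the threshold with higher and 2 with lower values in ACT + NKTR-214, and with 75th percentile scaling 5 were higher and 12 lower (of all genes tested, 20.7% were higher and 8.28% lower as deposited, and 23.8% and 24.7% with this scaling), with medians of -0.01 and -0.09. Among the immunoproteasome subunits *Psmb8* was the 1 gene called. In the list of transcription factor NRF1 and the proteins that process it, *Ngly1*, the glycanase that NRF1 needs to become active, was the 1 gene called, from 5.02, 3.88 and 5.14 FPKM in ACT + IL-2 to 8.95, 7.61 and 6.52 in ACT + NKTR-214. Its log2 fold change was 0.61 (SE 0.16, limma adjusted p = 0.01) as deposited and 0.54 with 75th percentile scaling (limma adjusted p = 0.00349), and of the 6 fits as deposited that left out 1 tumor the call was lost in the 1 without ACT + NKTR-214 replicate 1 (limma adjusted p = 0.0684). The NRF1 gene itself, *Nfe2l1*, had a log2 fold change of 0.30 and was not called with any scaling.

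Of 9 receptors, deubiquitinases and regulators bound to the particle, 1 was lower and 1 higher as deposited (8.28% and 20.7% of all genes). With 75th percentile scaling 5 were lower and 1 higher (24.7% and 23.8% of all genes), and with quantile normalization 4 and 1 (31.9% and 19.0%). As deposited *Ube3c*, a ligase that extends ubiquitin chains on stalled substrates, was lower and *Zfand2a*, which encodes a zinc finger protein induced by proteotoxic stress, was higher. *Ube3c* had 19.0, 16.5 and 21.1 FPKM in ACT + IL-2 and 14.7, 11.8 and 13.5 in ACT + NKTR-214, a log2 fold change of -0.47 (limma adjusted p = 0.0267, and -0.55 with limma adjusted p = 0.00402 after 75th percentile scaling), lost as deposited without ACT + IL-2 replicate 3 (0.144) or ACT + NKTR-214 replicate 2 (0.164). *Zfand2a* had a log2 fold change of 0.45 (limma adjusted p = 0.042, and 0.37 with limma adjusted p = 0.00697 after 75th percentile scaling), lost as deposited without ACT + IL-2 replicate 2 (0.0672), replicate 3 (0.0839), ACT + NKTR-214 replicate 1 (0.103) or replicate 2 (0.175). Of the 5 genes of the p97 list, 2 were lower after either rescaling, against 24.7% or 31.9% of all genes. *Vcp*, the segregase that hands unfolded proteins to the proteasome, was the 1 gene of this list called as deposited. It had 32.9, 26.4 and 29.4 FPKM in ACT + IL-2 and 23.8, 20.8 and 19.5 in ACT + NKTR-214, a log2 fold change of -0.45 (limma adjusted p = 0.0312, and -0.53 with limma adjusted p = 0.00197 after 75th percentile scaling), which as deposited held without ACT + IL-2 replicate 2 (0.0212) or ACT + NKTR-214 replicate 1 (0.0414) and was lost without ACT + IL-2 replicate 1 (0.114), replicate 3 (0.0953), ACT + NKTR-214 replicate 2 (0.112) or replicate 3 (0.124). None of the 6 assembly factors tested, 6 shuttle receptors and 6 ubiquitin and E1 genes was called by limma as deposited, and 0, 1 and 0 of them had an unadjusted p under 0.05. After 75th percentile scaling 2, 2 and 1 of these were lower and 0, 1 and 1 were higher.

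Marker genes of T cells, macrophages, fibroblasts, melanocytic cells and skeletal muscle were mostly called as deposited, where 20.7% of all genes were higher and 8.28% lower. The median log2 fold change by list, over all 8 lists, ran from -0.82 (melanocytic cells) to 3.41 (T cells). The 8 T cell genes tested were all higher in ACT + NKTR-214, with summed levels of 13.5 to 31.1 FPKM in ACT + IL-2 and 167 to 357 FPKM in ACT + NKTR-214, as were all 7 macrophage and monocyte genes (83.9 to 208 against 346 to 515 FPKM) and all 6 fibroblast genes (218 to 644 against 581 to 1162 FPKM). Of 7 melanocytic genes 5 were lower, with sums of 5413 to 6933 FPKM against 2664 to 3763 FPKM, and none was at 0 in any tumor. Skeletal muscle genes were lower in 4 of 5 (36.3 to 92.9 against 30.4 to 42.6 FPKM), adipocyte genes higher in 2 of 5 (21.4 to 69.7 against 36.3 to 129 FPKM) and endothelial genes higher in 1 of 5 (24.3 to 49.3 against 36.3 to 70.2 FPKM). The endothelial count is near the share of all genes called higher. In the values scaled to the 75th percentile (23.8% of all genes higher and 24.7% lower) the counts were 8 T cell, 6 macrophage, 3 fibroblast, 1 endothelial and 0 adipocyte genes higher and 7 melanocytic and 5 muscle genes lower. Keratinocyte genes summed to at most 1.36 FPKM, with *Krt1* and *Krt14* at 0 in at least 1 tumor. *Ifng*, the interferon-γ gene, averaged 1.59 ± 0.612 FPKM in ACT + IL-2 against 6.91 ± 1.19 FPKM (SD, n = 3 each). The part of these shifts in the levels of the members was not tested.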

How the data were processed

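RNA-seq of 6 whole tumors was used, 3 per group. Reads of 50 bases were aligned by the authors to GRCm38 with HISAT2 (version 2.0.4 per the submitters' processing notes) and assigned to genes with HTSeq. The deposited FPKM are linear values, with 1 column for each tumor. The annotation they used is not given in the sources used here. The table gives FPKM only, so the relative library size was read from the steps of low FPKM values. The absolute depth behind each value is unknown and no counting interval is given.

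FPKM were taken as log2(FPKM + 1). Genes whose mean FPKM reached 0.1 were fitted with limma 3.58.1 in R 4.3.3 (lmFit, then eBayes with an intensity trend), with group as the only term and Benjamini-Hochberg adjustment over all genes. The ratios of immunoproteasome to constitutive subunits were compared by two-sided exact permutation tests. The alternatives were another pseudocount (0.1), other minimum values (a mean of 1, or none), 75th percentile scaling, quantile normalization, moderation without the trend or left out, the replicate number as a block, and each tumor left out in turn. Rescaling together with a left-out tumor or the block was added after seeing the data. The fit was tested on simulated data.

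The members, gene lists and tests were chosen with earlier results of these data known. Values of every tumor are given for the catalytic subunits, the activators, *Psmd14*, *Psmd4*, up to 5 called members with the largest fold change in each direction, members that failed the minimum, the immunoproteasome subunits and the called gene with the largest fold change of each other list. *Psma3*, *Psma8*, *Psmd3*, *Psmd8*, *Psmd10*, *Zfand2a*, *Nfe2l1*, *Psme2b*, *Ifng* and the genes named for shared sequence were named after their values were seen. Gene positions and transcript windows came from the GENCODE annotation of GRCm38 and promoter windows from RefSeq (GRCm38.p6).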

Additional observations from a re-analysis of the deposited data

How the results depend on the processing

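As deposited, 1 member was called higher and 2 lower, 3 and 2 of the genes that work with the proteasome, and 2940 and 1173 of all genes. A pseudocount of 0.1 or a minimum mean FPKM of 1 left 1 member lower (*Psmd1*). With no minimum, 0 members and 0 genes of the lists were called in either direction, against 1193 and 395 of all genes, and with no moderation 0, 0, 101 and 27. Members higher and lower numbered 2 and 25 with 75th percentile scaling and 2 and 27 with quantile normalization. The lists then gave 5 and 12, and 4 and 12. Of all genes, 3370 were higher and 3501 lower with 75th percentile scaling, and 2691 and 4525 with quantile normalization. Leaving out 1 tumor gave 0 to 2 members higher and 0 to 12 lower, 0 to 3 and 0 to 5 genes of the lists, and 2004 to 3480 and 635 to 2003 of all genes. The 75th percentile scaling with 1 tumor left out gave 2 to 3 members higher and 3 to 5 genes of the lists higher, against 2365 to 3305 of all 14172 genes. Without ACT + IL-2 replicates 1, 2 and 3 in turn, 17, 16 and 22 members, 4, 5 and 9 genes of the lists and 2937, 2194 and 2452 of all genes were then lower, and without ACT + NKTR-214 replicates 1, 2 and 3 in turn, 20, 19 and 21 members, 8, 7 and 9 genes of the lists and 2864, 2720 and 3405 of all genes. The difference in the *Psmb9* to *Psmb6* log2 ratio turned to -0.022 under quantile normalization. The cause of these changes was not tested.

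Deviations of tumors with the same replicate number correlated at -0.206, -0.067 and 0.396, so the numbers were not taken as pairs. With the replicate block 1 member was higher and 2 were lower, and 3090 and 1227 of all genes. With 75th percentile scaling and the replicate block 2 members were higher and 22 lower, 4 and 10 genes of the lists, and 3111 and 2989 of all genes. Of the log2 fold changes of single members and genes of the lists, 1353 kept their side of the threshold, 260 passed it only under the alternative, 45 no longer passed and 0 called values changed sign. The absolute depth is unknown, so the smallest difference that *Psma8* and *Psmb11* could show was not estimated.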
